A study of Homo sapiens with 4 samples.

Results

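The transcripts of the human mitochondrial genome were followed in KBM5 cells, a cell line established from chronic myeloid leukemia that carries the BCR-ABL kinase fusion. The members are all rows of the deposited table whose name starts with MT- and whose locus is on chromosome MT, which gave 15 of 50868 rows, namely 13 protein-coding genes and 2 ribosomal RNA genes. Mitochondrial tRNA genes were not analysed here. The groups were cells that received IM and DSF together (IM-DSF), IM alone, DSF alone, and control cells (CTR), with 1 library each. The labels do not spell out the codes, which are read here as imatinib, an inhibitor of the BCR-ABL kinase, and disulfiram. They give no dose, duration or vehicle, and the series' title names GPX4, a lipid peroxide reductase, as the second target of the study. Each group is a single library, so differences cannot be set against replicates and p-values are not given. In bulk RNA, fewer cells of a type and less RNA per cell cannot be told apart.

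The mitochondrial genome is a small circle that encodes core subunits of the respiratory chain complexes I, III and IV and of the ATP synthase (complex V), together with the RNAs of the mitochondrial ribosome and a set of tRNAs. Both of its strands are transcribed by the polymerase POLRMT into long precursors, and cutting at the tRNAs that lie between the genes releases the separate RNAs. Most mitochondrial mRNAs then receive a poly(A) tail, which for several of them completes the stop codon. MT-ND6 is the only protein-coding gene of the light strand, and its mRNA is known to carry little or no poly(A) tail.

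Some points of sequence help to read the values. The sequences were taken from GENCODE 29 transcripts of the GRCh38 build. The first is strand. The first 60 bases of MT-ND6 (525 bases, minus strand) are shown beside those of its neighbours MT-ND5 and MT-CYB on the other strand, with every guanine in capitals.
MT-ND6, chrM:14614-14673, minus strand: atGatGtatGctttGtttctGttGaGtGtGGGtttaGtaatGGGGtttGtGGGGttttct
MT-ND5, chrM:12337-12396, plus strand: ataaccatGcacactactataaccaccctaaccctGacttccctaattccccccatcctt
MT-CYB, chrM:14747-14806, plus strand: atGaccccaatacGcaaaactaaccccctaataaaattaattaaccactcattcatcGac
Over its whole length MT-ND6 RNA held 35.6% G and 7.05% C, whereas MT-ND5 held 10.6% G and 34.3% C. The other 12 coding RNAs had between 6.28% G (MT-ATP8) and 16.2% G (MT-CO1).

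The second point is the 3′ end, for which the last 30 bases are shown with the final codon or the lone final base in capitals.
MT-ND6, chrM:14149-14178, minus strand: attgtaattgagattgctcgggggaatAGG
MT-ND3, chrM:10375-10404, plus strand: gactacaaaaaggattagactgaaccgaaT
MT-CO1, chrM:7416-7445, plus strand: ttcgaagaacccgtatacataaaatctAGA
MT-ND5, chrM:14119-14148, plus strand: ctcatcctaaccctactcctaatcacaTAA
MT-ND3 ends in the single base T after its last full codon, so its stop codon needs the added tail, while MT-ND6 ends in AGG and MT-CO1 in AGA.

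The third point is overlap. MT-ATP8 and MT-ATP6 are read from 1 RNA and share 46 bases, in which the start codon of MT-ATP6 and the stop codon of MT-ATP8 are capitalised here.
Shared stretch, chrM:8527-8572, plus strand: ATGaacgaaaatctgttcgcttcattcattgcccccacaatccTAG
MT-ND4L and MT-ND4 share 7 bases, and MT-ATP6 and MT-CO3 share 1. The library kit named in the labels keeps strand, but neither the strand setting nor the handling of overlaps in the authors' counting is stated, so values of overlapping genes are uncertain. If strand was not used, reads of MT-ND6 cannot be told apart from reads of heavy-strand RNA that runs opposite to it.

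The fourth point is nuclear copies. MTATP6P1, a pseudogene on chromosome 1 (633696 to 634376), differs from MT-ATP6 at 10 of 681 bases, and positions 121 to 200 of both, counted from the first base of the gene, are given with the differing bases in capitals.
MT-ATP6, chrM:8647-8726, plus strand: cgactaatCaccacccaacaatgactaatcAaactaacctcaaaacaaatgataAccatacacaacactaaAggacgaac
MTATP6P1, chromosome 1: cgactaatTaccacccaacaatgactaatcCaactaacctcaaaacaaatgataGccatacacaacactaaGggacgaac
In this window the substitutions from the mitochondrial gene to the copy are C129T, A151C, A175G and A192G.

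The deposited values are FPKM, fragments scaled by gene length and by library size. Each mitochondrial gene has 1 exon, and FPKM multiplied by length gave whole fragments in each library for all 15 genes, within 0.05 of a whole number. The recovered denominators were 12443255 fragments in IM-DSF, 15810648 in IM, 14704466 in DSF and 14506545 in CTR. The 95% intervals below are exact conditional binomial intervals on these fragments. They reflect counting error alone, and fragments copied by PCR are not independent. The cells' myeloid origin was checked on markers. Of these, 9 of 10 were at 1 FPKM or more in every library, KIT was listed at 0 in all 4, and none of 12 erythroid, T cell, B cell and megakaryocyte markers reached 1 FPKM. The summed myeloid markers were higher in the drug-treated libraries, at 2704 FPKM in IM-DSF, 2754 in IM and 2172 in DSF, against 1632 in CTR, and their part in the results was not tested.

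The mitochondrial genome as a whole held a similar part of the measured RNA. Its 15 genes took 8.35% of the fragments in IM-DSF, 7.84% in IM, 8.24% in DSF and 7.65% in CTR. Because the genes are short, the same RNAs made up 32.0%, 30.1% and 32.6% of the summed FPKM in IM-DSF, IM and DSF, against 31.3% in CTR. The 13 coding genes summed to 81623 FPKM in IM-DSF, 80677 in IM, 87201 in DSF and 82251 in CTR, which is 0.992, 0.981 and 1.06 times CTR in IM-DSF, IM and DSF. The sum therefore hides what single genes did. Summed FPKM weighs each gene per length, so these ratios need not have the direction of the fragment shares. Fragment shares of the 13 coding genes alone are not given here.

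**Figure D1:**
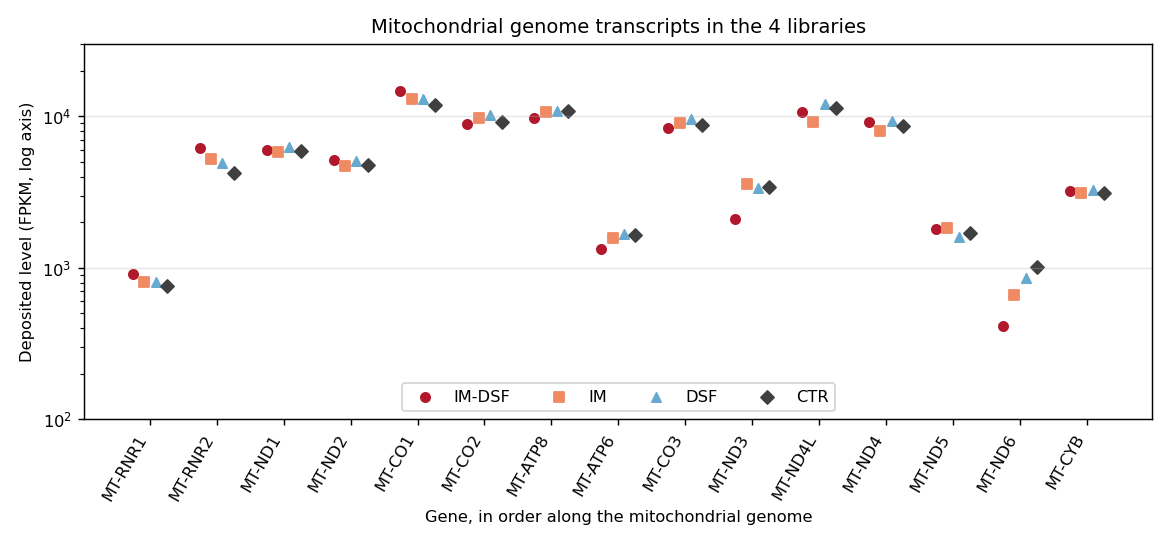
Deposited level in FPKM (log axis) of each of the 15 mitochondrial genes, in order along the genome, in the IM-DSF, IM, DSF and CTR libraries (1 point per library, no replicates). Most genes have 4 nearly level points, while MT-ND6 spans 413 FPKM in IM-DSF to 1015 FPKM in CTR and MT-ND3 is low in IM-DSF alone.

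A difference was called by size, at an absolute log2(FPKM + 1) difference of at least 1, which is 2-fold on that scale, among the 11004 genes whose 4 libraries averaged 1 FPKM or more. All 15 mitochondrial genes passed this filter, and the lowest value of any in any library was 413 FPKM. In IM-DSF against CTR, 0 of the 13 coding genes were called higher and 1 was called lower, MT-ND6, where 4.28% of all genes tested were called, 2.54% higher and 1.74% lower. In IM-DSF against DSF the count was again 0 higher and 1 lower, MT-ND6, where 2.37% of all genes were called, 1.33% higher and 1.05% lower. No coding gene was called in IM against CTR (2.43% of all genes called, 1.54% higher and 0.891% lower), in DSF against CTR (1.12% called, 0.545% higher and 0.573% lower) or in IM-DSF against IM (1.74% called, 0.7% higher and 1.04% lower). Neither rRNA was called in any of the 5 comparisons. The median difference of the 13 coding genes was -0.03 in IM-DSF against CTR, where the median of all genes was 0.02, and lay between -0.16 (IM-DSF against DSF) and 0.08 (DSF against CTR) over the 5 comparisons. The median of all genes depends on the filter. Among the 5683 genes that averaged 5 FPKM or more it was -0.08 in IM-DSF against CTR, below that of the 13 coding genes.

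MT-ND6, a membrane subunit of complex I (ENSG00000198695, chromosome MT, 14149 to 14673), had 413 FPKM in IM-DSF, 666 in IM, 853 in DSF and 1015 in CTR. These levels rest on 2695, 5528, 6585 and 7731 fragments in the same libraries. The library kit named in the labels is for mRNA, and MT-ND6 mRNA is known to carry little or no poly(A) tail. If strand was used in the counting, the values are those of its captured part. If it was not, they may also hold reads of heavy-strand RNA that runs opposite to it. The part of capture or of such reads in the differences was not tested. The control library was the highest and the combination the lowest, with both single drugs in between. The ratio to CTR was 0.406 in IM-DSF (95% interval 0.389 to 0.425), 0.656 in IM (0.634 to 0.679) and 0.840 in DSF (0.813 to 0.868). IM-DSF was at 0.619 times IM (0.591 to 0.649) and at 0.484 times DSF (0.462 to 0.506). On the log2(FPKM + 1) scale the difference from CTR was -1.30 in IM-DSF, -0.61 in IM and -0.25 in DSF. The value in IM-DSF lay 0.44 log2 units below the sum of both single-drug differences (departure -0.44), with no test of that departure. In IM-DSF against CTR, 77 of the 11004 genes tested, MT-ND6 included, had a difference of -1.30 or lower. In IM against CTR 363 genes were at or below the -0.61 of MT-ND6 there, and in DSF against CTR 1110 genes were at or below its -0.25. Among the 229 genes that averaged 100 FPKM or more, a limit chosen after the data were seen, 6 were called lower in IM-DSF against CTR (2.62%), and MT-ND6 was the only one called lower in IM-DSF against DSF (0.437%). In the same set 4 genes were called lower in IM-DSF against IM (1.75%), 1 in IM against CTR (0.437%) and 0 in DSF against CTR, and MT-ND6 was not called in these 3.

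The neighbours of MT-ND6 on the heavy strand did not share its order. MT-ND5, the gene that adjoins its 3′ end and encodes another proton-pumping subunit of complex I (12337 to 14148), had 1817 FPKM in IM-DSF, 1840.5 in IM, 1594 in DSF and 1709.8 in CTR. MT-CYB, the cytochrome b of complex III on its other side (14747 to 15887), had 3206, 3099, 3286 and 3137 FPKM in IM-DSF, IM, DSF and CTR. Ratios within 1 library do not depend on how the library was scaled, but they can depend on how each RNA was captured, which was not measured. The level of MT-ND6 was 0.227 times that of MT-ND5 in IM-DSF, 0.362 times in IM, 0.535 times in DSF and 0.594 times in CTR. Against MT-CYB it was 0.129 times in IM-DSF, 0.215 times in IM, 0.260 times in DSF and 0.324 times in CTR. Both ratios had the order of MT-ND6 itself, and the counting intervals of the 4 libraries did not overlap. MT-ND6 made up 0.505% of the summed FPKM of the 13 coding genes in IM-DSF, 0.825% in IM, 0.978% in DSF and 1.23% in CTR, the smallest share of any coding gene in every library.

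**Figure D2:**
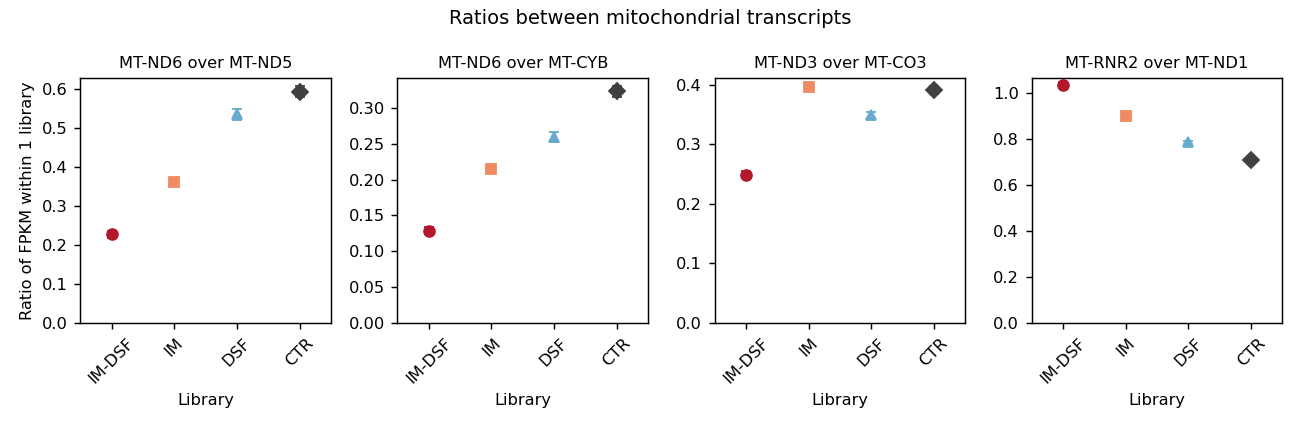
Ratio of the FPKM of 2 mitochondrial genes within the same library, for the IM-DSF, IM, DSF and CTR libraries; bars are 95% counting intervals, mostly smaller than the points. MT-ND6 over MT-ND5 is 0.227 in IM-DSF and 0.594 in CTR, MT-ND3 over MT-CO3 is low in IM-DSF alone, and MT-RNR2 over MT-ND1 has the opposite order to MT-ND6.

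MT-ND3, a small complex I subunit at the junction of its membrane and matrix arms (10059 to 10404), had 2094 FPKM in IM-DSF, 3566 in IM, 3352 in DSF and 3423 in CTR. The 3 other libraries lay close together, and the combination stood below them. Its ratio was 0.612 to CTR (0.596 to 0.628), 0.587 to IM (0.573 to 0.602) and 0.625 to DSF (0.609 to 0.641). The log2 differences of IM-DSF from CTR, IM and DSF, -0.71, -0.77 and -0.68, did not pass the size rule. In IM alone MT-ND3 was at 1.04 times CTR (1.02 to 1.06) and in DSF alone at 0.979 times. Its departure of -0.74 from additivity was the largest in size of the 15 genes. Its level relative to the gene upstream, MT-CO3, was 0.249 in IM-DSF, 0.396 in IM, 0.349 in DSF and 0.391 in CTR. It made up 2.57% of the summed coding FPKM in IM-DSF, 4.42% in IM, 3.84% in DSF and 4.16% in CTR.

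The other complex I subunits lay closer to CTR in IM-DSF. MT-ND1 (3307 to 4262), which lines the quinone-binding site, had 5999, 5776, 6301 and 5942 FPKM in IM-DSF, IM, DSF and CTR. MT-ND2 (4470 to 5511), a membrane-arm subunit, had 5137, 4714, 5073 and 4803 FPKM in the same libraries. The ratios to CTR of both genes lay between 0.972 (MT-ND1 in IM) and 1.07 (MT-ND2 in IM-DSF). MT-ND4 (10760 to 12137), another membrane-arm subunit, had 9201 FPKM in IM-DSF, 7962 in IM, 9376 in DSF and 8676 in CTR. MT-ND4L (10470 to 10766), which shares its RNA with MT-ND4, had 10698, 9141, 12011 and 11361 FPKM in IM-DSF, IM, DSF and CTR. This pair was low in IM, at 0.918 times CTR for MT-ND4 (0.912 to 0.924) and 0.805 times for MT-ND4L (0.794 to 0.815), and above IM in IM-DSF, at 1.16 times (1.15 to 1.16) and 1.17 times (1.15 to 1.19).

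The 3 cytochrome oxidase subunits did not move alike. MT-CO1, the catalytic subunit of complex IV (5904 to 7445), was the highest of the 15 genes in every library, with 14575 FPKM in IM-DSF, 12998 in IM, 12995 in DSF and 11864 in CTR. All 3 treated libraries were above CTR, the combination most, at 1.23 times (1.22 to 1.24), with IM and DSF both at 1.10 times. MT-CO2, which receives electrons from cytochrome c (7586 to 8269), had 8943 FPKM in IM-DSF, 9682 in IM, 10207 in DSF and 9161 in CTR. MT-CO3, a structural subunit (9207 to 9990), had 8424, 8995, 9605 and 8753 FPKM in IM-DSF, IM, DSF and CTR. Both were highest in DSF and lowest in IM-DSF, at 0.976 times CTR for MT-CO2 (0.967 to 0.986) and 0.962 times for MT-CO3 (0.954 to 0.971). The level of MT-CO1 over MT-CO2 was 1.63 in IM-DSF, 1.34 in IM, 1.27 in DSF and 1.30 in CTR. MT-CO1 made up 17.9% of the summed coding FPKM in IM-DSF, 16.1% in IM, 14.9% in DSF and 14.4% in CTR, and was 35.3 times as high as MT-ND6 in IM-DSF, 19.5 times in IM, 15.2 times in DSF and 11.7 times in CTR.

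The ATP synthase subunits were lower in the combination. MT-ATP6, the subunit next to the rotor through which protons pass (8527 to 9207), had 1339.5 FPKM in IM-DSF, 1575 in IM, 1661 in DSF and 1643 in CTR, and was at 0.815 times CTR in IM-DSF (0.796 to 0.835). MT-ATP8, a small stator subunit (8366 to 8572), had 9777, 10663, 10887 and 10763 FPKM in IM-DSF, IM, DSF and CTR, and was at 0.908 times CTR in IM-DSF (0.894 to 0.924). Both lie on 1 RNA, but MT-ATP8 was listed 7.30 times as high per length as MT-ATP6 in IM-DSF, 6.77 times in IM, 6.56 times in DSF and 6.55 times in CTR. The nuclear copy MTATP6P1 was listed at 932, 1039 and 1112 FPKM in IM-DSF, IM and DSF, against 1007 FPKM in CTR, all below those of MT-ATP6 in the same library. The copy of MT-ATP8, MTATP8P1, differs from it at 5 of 207 bases, was also chosen after its values were seen, and was listed at 3.11 FPKM in IM-DSF, 0.611 in IM, 0.328 in DSF and 0.333 in CTR. With MTATP6P1 added to MT-ATP6, the log2 difference from CTR was -0.22 in IM-DSF, -0.02 in IM and 0.06 in DSF. For MT-ATP6 by itself it was -0.29, -0.06 and 0.02 in the same libraries. How far such near-identical copies share reads with MT-ATP6 was not tested.

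Of 380 rows named as nuclear copies of mitochondrial genes, 57 were above 0 in any library, 11 had a mean of at least 1 FPKM and 2 a mean of at least 100 FPKM. The second of these, MTND2P28 on chromosome 1 (629640 to 630683), was listed at 632 FPKM in IM-DSF, 482 in IM, 597 in DSF and 556 in CTR. MTCO1P12, next in level, had 307 fragments in IM-DSF, 383 in IM and 385 in DSF, against 290 fragments in CTR. The copy MTND6P4, chosen after its values were seen, had only 4 fragments in IM-DSF, 16 in IM, 14 in DSF and 17 in CTR, where MT-ND6 had 2695 or more.

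**Figure D3:**
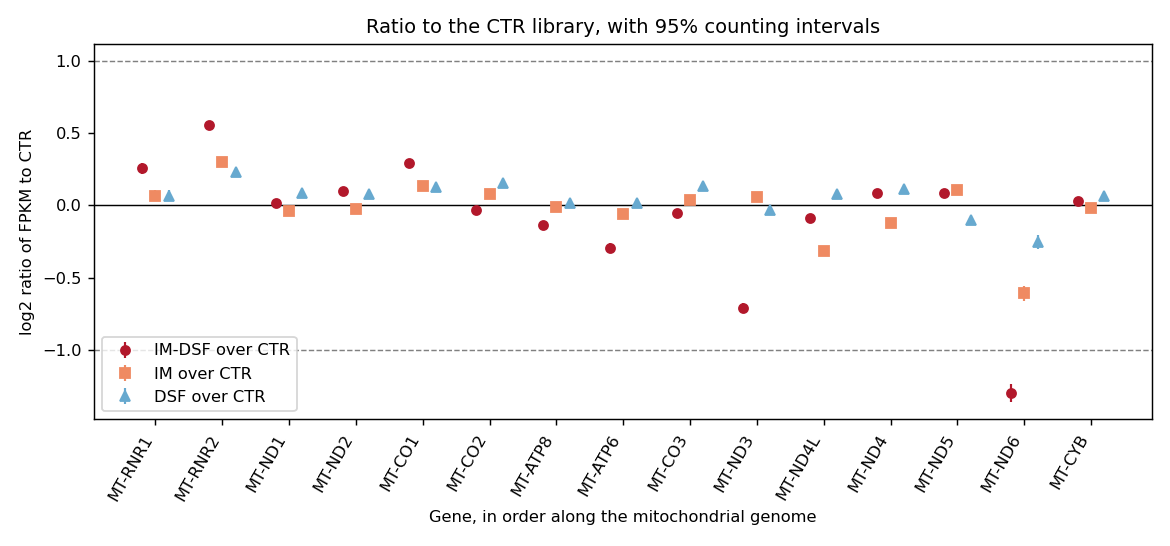
Ratio of FPKM to the CTR library (log2 axis) for IM-DSF, IM and DSF, for the 15 genes in order along the genome; bars are 95% counting intervals and dashed lines mark a 2-fold ratio. MT-ND6 in IM-DSF lies below the lower dashed line, MT-ND3 is low in IM-DSF alone, and MT-RNR2 is above CTR in all 3 treated libraries.

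Both ribosomal RNAs of the mitochondrion were highest in IM-DSF and lowest in CTR, although MT-RNR1 in IM turned to -0.00247 against CTR when scaled to genes outside the mitochondrial genome, and MT-RNR2 had the opposite order to MT-ND6 over all 4 libraries. MT-RNR2, the RNA of the large subunit of the mitochondrial ribosome (1671 to 3229), had 6213 FPKM in IM-DSF, 5193 in IM, 4943 in DSF and 4213 in CTR. It was at 1.47 times CTR in IM-DSF (1.46 to 1.49), 1.23 times in IM (1.22 to 1.24) and 1.17 times in DSF (1.16 to 1.18), and its departure from additivity was 0.03. MT-RNR1, the RNA of the small subunit (648 to 1601), had 913, 800.4 and 800.7 FPKM in IM-DSF, IM and DSF, against 764 FPKM in CTR, and the difference of IM-DSF from CTR was 0.26 log2 units. The level of MT-RNR2 over MT-RNR1 was 6.81 in IM-DSF, 6.49 in IM, 6.17 in DSF and 5.52 in CTR. The level of MT-RNR2 over MT-ND1, the next gene on the same strand, was 1.04 in IM-DSF, 0.899 in IM, 0.785 in DSF and 0.709 in CTR. The library kit named in the labels is for mRNA, so these levels are those of the captured part of the rRNAs.

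Differences between IM-DSF and CTR ran with annotated length, which for a mitochondrial gene is that of its own entry. MT-ATP8 and MT-ATP6 share 1 RNA, as do MT-ND4L and MT-ND4, and such an RNA is longer than either entry. The 7 coding genes under 800 bases were all below CTR in IM-DSF, and the 6 over 900 bases were all above it. Some lay near CTR, such as MT-CO2 at -0.03 and MT-CYB at 0.03, and MT-ND1 turned to -0.01 with median-of-ratios or trimmed-mean scaling. Of nuclear protein-coding genes, 63.0% of up to 600 bases and 67.5% from there to 800 bases were below CTR in IM-DSF. The share was 66.3% from 800 to 1000 bases and 56.8% from there to 2000 bases. Over the 13 coding genes, length and the IM-DSF minus CTR difference had a Spearman correlation of 0.86, against 0.37 for IM minus CTR and 0.23 for DSF minus CTR. It was 0.48 for IM-DSF minus IM and 0.78 for IM-DSF minus DSF. These genes share libraries and precursors, and the values are descriptions. Over 9309 nuclear protein-coding genes the correlation in IM-DSF minus CTR had the same sign but was much weaker, at 0.15, with a median of -0.25 for the 46 genes of up to 600 bases, -0.20 for 126 genes from there to 800 bases, and 0.06 for 3738 genes over 4000 bases. In IM against CTR the medians of these length classes were 0.05, -0.04 and 0.03, and in DSF against CTR 0.05, -0.00935 and -0.00171. The 199 genes from 800 to 1000 bases had medians of -0.19 in IM-DSF, -0.10 in IM and -0.05 in DSF, each against CTR. Of 371 nuclear genes of up to 1000 bases, 23 were called lower in IM-DSF against CTR (6.20%). Over the 9309 nuclear genes the correlation with length was 0.21 in IM-DSF minus IM and 0.18 in IM-DSF minus DSF. It was 0.04 in IM minus CTR and 0.000577 in DSF minus CTR. MT-ND6 and MT-ND3 lay below the medians of their length class in IM-DSF. MT-ATP8 and MT-ND4L, whose entries are shorter than both but which lie on shared RNAs, were at -0.14 and -0.09. The part of transcript length in these results was not tested.

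**Figure D4:**
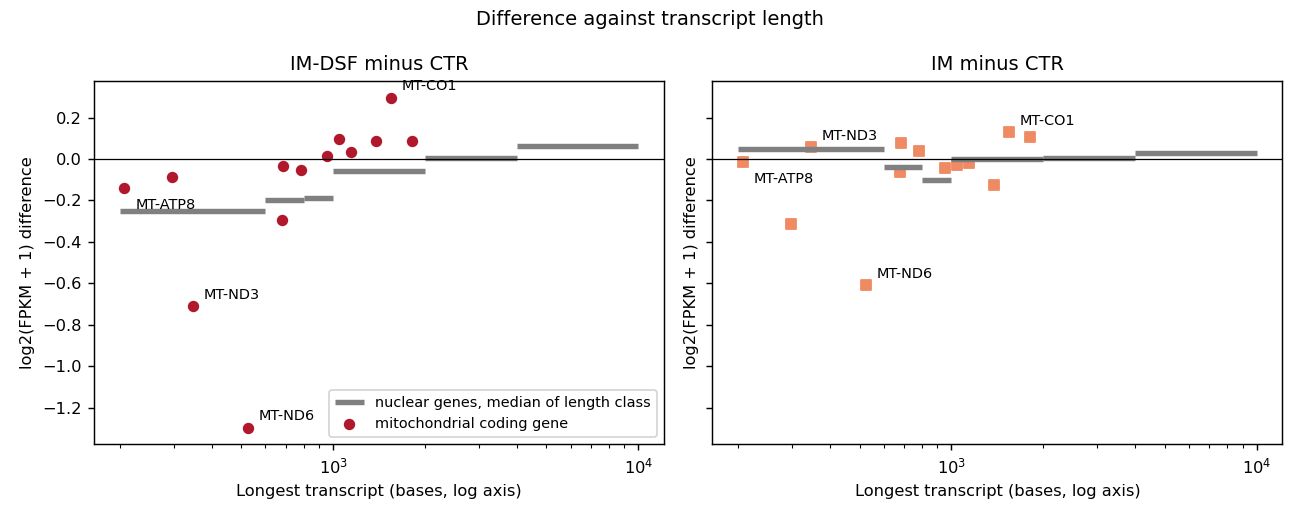
Difference in log2(FPKM + 1) of the 13 mitochondrial coding genes against the length of the longest transcript (log axis), for IM-DSF minus CTR and for IM minus CTR; grey bars are medians of nuclear protein-coding genes in 6 length classes. In IM-DSF minus CTR the short genes lie below 0, and MT-ND6 and MT-ND3 lie far below the grey bars. In IM minus CTR the grey bars lie between -0.10 (800 to 1000 bases) and 0.05 (up to 600 bases). MT-ND6 is at -0.61 there.

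Nuclear-encoded subunits of the same complexes were set beside them. Of 81 listed subunits of complexes I, III, IV and V, 75 passed the filter, and their median difference was -0.32 in IM-DSF against CTR, -0.13 in IM against CTR and -0.07 in DSF against CTR, where the 13 mitochondrial genes had -0.03, -0.02 and 0.08. In IM-DSF against CTR, 62 of the 75 lay below 0, with 5 called lower and 0 called higher, where 47.9% of all genes tested lay below 0 and 1.74% were called lower. The 5 were NDUFA3 (3.88 FPKM in IM-DSF and 9.12 in CTR) and NDUFA1 (39.1 and 81.2) of complex I, UQCR10 of complex III (23.6 and 51.4), and ATP5ME (26.7 and 61.6) and ATP5MD (25.5 and 52.5) of the ATP synthase. All 5 have longest transcripts of 365 (ATP5ME) to 963 bases (NDUFA3). Of nuclear protein-coding genes of up to 1000 bases, 6.20% were called lower in the same comparison. From 63.0% to 67.5% of them lay below 0, by length class. The list was not matched for length, and the part of length was not tested. Of 12 complex IV subunits past the filter, all were below 0 and none was called, led by COX6C (44.4 FPKM in IM-DSF and 80.7 in CTR), COX7B (20.3 and 34.1) and COX5A (48.1 and 71.4). The next in size in the other complexes were NDUFAB1 (18.6 and 34.0 FPKM), UQCRQ (12.7 and 19.4), UQCRC1 (24.1 and 31.5) and ATP5MC3 (23.5 and 39.0).

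Factors that copy, process or stabilise mitochondrial RNA were listed together with enzymes of mitochondrial DNA such as POLG and TWNK. Regulators of transcription such as NRF1 and ESRRA were also included. The list held 49 genes, of which 46 passed the filter. Their median difference was -0.16 in IM-DSF against CTR, -0.24 in IM against CTR and -0.04 in DSF against CTR, with 35, 37 and 29 of the 46 below 0, where 47.9%, 46.9% and 49.98% of all genes lay below 0 in the same comparisons. The size rule called 2 lower and 0 higher in IM-DSF against CTR, where 1.74% of all genes were called lower, and none in the 4 other comparisons. This list was not matched for length either. SLIRP, which with LRPPRC protects mitochondrial mRNAs from decay, had 3.42 FPKM in IM-DSF, 6.62 in IM, 6.55 in DSF and 9.30 in CTR. RNASEH1, which removes RNA from RNA-DNA hybrids, had 9.18, 11.7 and 17.7 FPKM in IM-DSF, IM and DSF, against 19.6 FPKM in CTR. MRM3, a methyltransferase of the large mitochondrial rRNA, was the third in size, with 4.82 FPKM in IM-DSF and 8.30 in CTR. POLRMT, TFAM and LRPPRC fall outside the naming rule and were chosen after their values were seen. POLRMT had 12.17 FPKM in IM-DSF, 11.96 in IM, 15.21 in DSF and 12.98 in CTR. The transcription factor TFAM, which also packs the mitochondrial DNA, had 14.3, 15.5 and 17.1 FPKM in IM-DSF, IM and DSF, against 21.1 FPKM in CTR. LRPPRC had 56.9, 54.0 and 61.6 FPKM in the treated libraries in that order, and 66.4 FPKM in CTR.

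**Figure D5:**
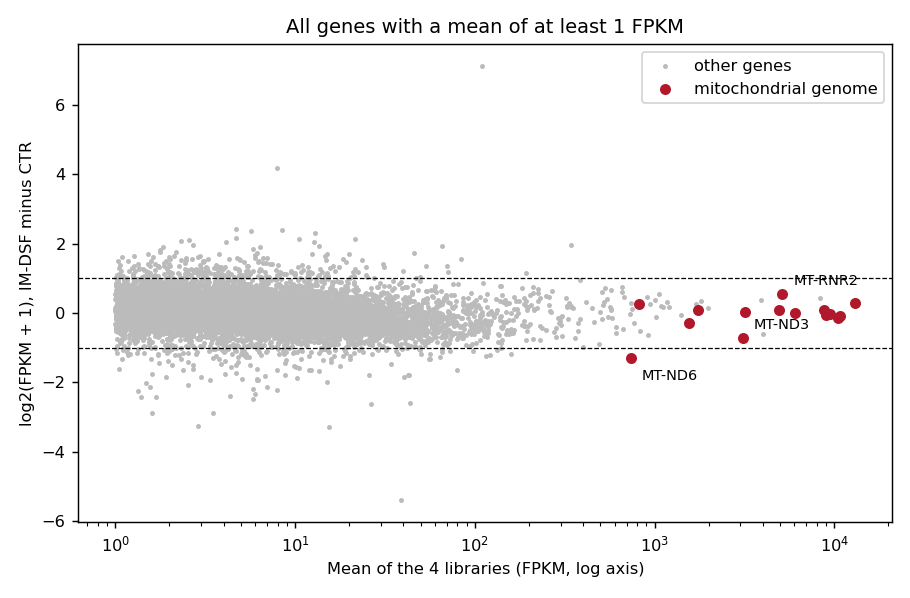
Difference in log2(FPKM + 1) between IM-DSF and CTR against the mean of the 4 libraries (FPKM, log axis) for 11004 genes, with the 15 mitochondrial genes in red; dashed lines mark the size rule of 1. The mitochondrial genes are among the most abundant, and MT-ND6 is the only one of them beyond a dashed line.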

How the data were processed

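The authors deposited FPKM values of 50868 genes in 1 table with a column for each of the 4 samples, per the file headers. Alignment software HISAT2 (2.0.4) and build GRCh38.p14 come from the submitters' processing notes. The counter, annotation release, gene lengths and strand setting were not stated there or in the labels. Starts and ends of the 15 mitochondrial genes were identical to those in GENCODE 29. The number of fragments behind 1 FPKM was recovered in each library from single-exon genes, for which 99.97% of values above 0 came out whole within 0.05. Log2 differences are on the log2(FPKM + 1) scale, on which low genes appear to change less than they do. Ratios and their intervals are of FPKM without the added 1. The filter was a mean of at least 1 FPKM and the size rule 1 log2 unit. Levels between genes were compared per length. No count test was run, since each group has 1 library and lengths of genes with several exons are not known. Departure from additivity was taken as the log2 difference of IM-DSF from CTR less those of IM and DSF added together. The comparisons share libraries.

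The members and gene lists were chosen with earlier results of these data known. Every mitochondrial gene is named, with the nuclear list members past the size rule in any comparison, the 3 largest per list in IM-DSF against CTR, and the 3 highest nuclear copies. Mitochondrial ribosomal proteins were a further list. Alternatives were another pseudocount (0.1), other filters, 4 scalings, leaving out overlapping pairs and, added after the data were seen, adding nuclear copies. The size rule, the recovery of fragments and the intervals were tested on simulated data. Python 3.11.15, numpy 2.4.6, pandas 2.3.3, scipy 1.17.1 and matplotlib 3.10.9 were used.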

Additional observations from a re-analysis of the deposited data

Results flagged for a closer look

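In 4 genes, 1 drug went with a higher level on its own and with a lower level on top of the other drug, or the reverse, with both counting intervals excluding 1. The differences between both effects were not tested, and there is 1 library per group. The share of all genes that did so was not counted. At these fragment numbers, differences as small as 0.02 log2 units met the rule. For IM these were MT-ND3 (-0.68 log2 units when added to DSF and 0.06 alone, a difference of -0.74), MT-CO2 (-0.19 and 0.08, a difference of -0.27), MT-CO3 (-0.19 and 0.04, a difference of -0.23) and MT-ND2 (0.02 and -0.03, a difference of 0.0449). For DSF they were MT-CO2 (-0.11 when added to IM and 0.16 alone, a difference of -0.27) and MT-CO3 (-0.09 and 0.13, a difference of -0.23), which by construction are the same differences as for IM. Under some scalings the small values alone change sign: MT-CO3 in IM was -0.01 after rescaling to TPM, MT-ND3 in IM was -0.01 when scaled to genes outside the mitochondrial genome, and MT-ND2 in IM-DSF against DSF was -0.00481 with trimmed-mean factors.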

How the results depend on the processing

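The number of coding genes past the size rule was the same in all 5 comparisons under every setting for which it was counted. It was not counted without the overlapping pairs. The other filters could not change these genes, whose lowest value was 413 FPKM, and the other pseudocount could hardly do so. The share of all genes called was less stable. For IM-DSF against CTR and against DSF it was 4.28% and 2.37% as deposited. With a pseudocount of 0.1 it was 8.12% and 4.91%, and with TPM 7.08% and 4.23%. The filter at 5 FPKM gave 4.01% and 2.15%, and no filter 1.09% and 0.643%. The remaining scalings gave 4.22% to 4.32% and 2.31% to 2.34%. How the 1 coding gene called compares with all genes therefore depends on the setting. MT-ND6 lay between -1.33 and -1.28 in IM-DSF against CTR and between -1.07 and -1.01 in IM-DSF against DSF. No called value changed its sign. The medians are small, and 15 of their 45 recomputed values left the counting interval of the single gene that held the median as deposited. An interval of the median itself was not computed. The 45 include values under the other filters, which could not move. With TPM they were -0.0634 in IM against CTR, 0.0451 in DSF against CTR, 0.0321 in IM-DSF against IM and -0.12 in IM-DSF against DSF. In IM-DSF against CTR and IM against CTR they were -0.0605 and -0.0473 with median-of-ratios factors, and -0.0632 and -0.0505 with trimmed-mean factors. Scaled to the summed FPKM outside the mitochondrial genome, they were -0.0163 in IM-DSF against CTR, -0.0878 in IM against CTR, 0.0702 in IM-DSF against IM and -0.13 in IM-DSF against DSF. Without the overlapping pairs they were 0.0138 in IM-DSF against CTR, 0.0394 in IM against CTR and -0.0707 in IM-DSF against DSF; the cause was not tested. The ratio of the summed coding genes, in the order IM-DSF, IM and DSF over CTR, IM-DSF over IM and IM-DSF over DSF, was 0.992, 0.981, 1.06, 1.01 and 0.936 as deposited. It was 0.996, 0.950, 1.04, 1.05 and 0.961 with TPM, 0.975, 0.961, 1.05, 1.01 and 0.926 with median-of-ratios factors, 0.973, 0.959, 1.06, 1.01 and 0.921 with trimmed-mean factors, and 1.01, 0.934, 1.06, 1.08 and 0.952 when scaled to genes outside the mitochondrial genome. No paired analysis was possible because each group has 1 library. Counting rests on at least 2695 fragments in MT-ND6, and the spread between replicates was not measured.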

Other observations

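Mitochondrial ribosomal proteins, which are nuclear-encoded and bind the mitochondrial rRNAs, lay mostly below CTR in the treated libraries, but few passed the size rule. All 78 listed genes passed the filter, and 67 were below 0 in IM-DSF against CTR (median -0.32), 66 in IM against CTR (median -0.22) and 54 in DSF against CTR (median -0.09). Of all genes tested, 47.9%, 46.9% and 49.98% lay below 0 in these comparisons. The size rule called 2 of the 78 lower in IM-DSF against CTR and 2 in IM against CTR, where 1.74% and 0.891% of all genes were called lower. MRPL34, a large-subunit protein, was called lower in IM-DSF, with 1.49 FPKM in IM-DSF, 7.40 in IM, 7.30 in DSF and 8.38 in CTR. MRPL17 was called lower in IM-DSF and in IM, with 7.75, 7.85 and 9.72 FPKM in IM-DSF, IM and DSF, against 17.2 FPKM in CTR. MRPL36 was called lower in IM alone, with 9.76 FPKM in IM-DSF, 5.67 in IM, 14.2 in DSF and 14.7 in CTR. MRPL54 had 11.5 FPKM in IM-DSF and 21.4 in CTR. The longest transcript of MRPL34 is 968 bases, that of MRPL36 is 793 and that of MRPL17 is 1969. Of nuclear protein-coding genes of up to 1000 bases, 6.20% were called lower in IM-DSF against CTR and 1.35% in IM against CTR. The ribosomal proteins were not matched for length.

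The next nuclear copies were chosen after their values were seen. MTRNR2L12 on chromosome 3, named after MT-RNR2, had 38 fragments in IM-DSF, 46 in IM, 28 in DSF and 24 in CTR. MTND4LP30 on chromosome 5, named after MT-ND4L, had 2 fragments in IM-DSF, 14 in IM, 35 in DSF and 4 in CTR.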
